A study of Mus musculus with 2 samples.

Results

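The genes described here are 6 components of the circadian clock of mouse liver: Nfil3, Arntl, Npas2, Clock, Cry1 and Rora. They were taken as clock genes that are driven mainly through the RORE, the DNA element bound by the nuclear receptors REV-ERB and ROR, or that act on that element. A gene was matched by the probe sets to which the platform annotation gives its symbol and no other. Each of the 6 had 1 such probe set, out of 22180 genes measured in this way.

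The samples were liver RNA of male wild-type (WT) mice and of male mice of the E4bp4-LKO genotype, which the series title describes as deficient in E4bp4, the protein name of the Nfil3 product. Mice of each group were 2 months old when they were moved to a high-fat diet, which they ate for 12 weeks, housed with 12 hours of light and 12 hours of dark. Each genotype was hybridised as pooled RNA on 1 Affymetrix array. The sources used here do not give how many mice made up a pool, how the allele was made, which part of the gene it lacks or at what hour liver was taken. With 1 array per genotype there was no replicate, so no difference below carries an error or a test, and each describes this pair of arrays. Precision is limited by the number of arrays.

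In the liver clock, CLOCK or its relative NPAS2 pairs with BMAL1, the product of Arntl, and activates genes with an E-box, among them the Per and Cry genes and the genes of the REV-ERB receptors. PER and CRY proteins then repress CLOCK and BMAL1. REV-ERB, encoded by Nr1d1 and Nr1d2, represses genes with a RORE, whereas ROR receptors activate them, so that RORE genes peak at a phase of the day opposite to that of many E-box genes. Nfil3 is itself a RORE gene, and its protein E4BP4 represses genes with a D-box, the element that DBP, TEF and HLF activate.

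The promoters of Arntl, Nfil3 and Cry1 are shown because they hold letters that match the core of a RORE or an E-box. They are RefSeq promoter windows of build GRCm38.p6, from 250 bases before a transcription start to 50 after it, read on the strand of the gene. All 6 genes matched an entry, with 9 windows in total. The sequences came from the reference and not from these mice. The Arntl window (chr7:113207261-113207560, plus strand) has in capitals AAAGTAGGTCA, which holds the RORE core TAGGTCA, and the letters AAAGTAGGT of a similar stretch upstream of it. The Nfil3 window (chr13:52980990-52981289, minus strand) has a RORE core in capitals, which reads TAGGTCA on the opposite strand. The Cry1 window (chr10:85185005-85185304, minus strand) has an E-box, CACGTG, and an E'-box, CACGTT on the opposite strand, in capitals.
Arntl: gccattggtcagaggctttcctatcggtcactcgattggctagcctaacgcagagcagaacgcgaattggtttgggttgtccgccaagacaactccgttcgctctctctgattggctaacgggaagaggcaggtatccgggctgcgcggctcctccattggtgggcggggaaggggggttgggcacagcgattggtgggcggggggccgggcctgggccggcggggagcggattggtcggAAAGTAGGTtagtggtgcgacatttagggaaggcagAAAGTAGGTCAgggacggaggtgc
Nfil3: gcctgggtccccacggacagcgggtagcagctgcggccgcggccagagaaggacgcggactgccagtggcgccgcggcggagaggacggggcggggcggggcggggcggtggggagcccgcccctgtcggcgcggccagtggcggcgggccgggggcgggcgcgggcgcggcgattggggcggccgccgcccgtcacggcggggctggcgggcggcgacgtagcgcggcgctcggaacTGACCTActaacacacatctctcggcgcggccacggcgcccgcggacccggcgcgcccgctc
Cry1: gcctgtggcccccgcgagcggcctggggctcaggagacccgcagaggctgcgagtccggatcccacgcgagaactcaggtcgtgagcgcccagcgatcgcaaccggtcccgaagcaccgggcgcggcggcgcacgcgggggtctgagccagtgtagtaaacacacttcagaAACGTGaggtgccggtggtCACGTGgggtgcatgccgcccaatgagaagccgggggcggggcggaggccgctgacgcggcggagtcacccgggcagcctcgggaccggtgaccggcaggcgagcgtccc

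The RORE core, searched as TAGGTCA or TGGGTCA on both strands, was in windows of 2 of the 6 genes, Arntl and Nfil3. By windows this was 2 of 9, against 6.45% of all 32851 promoter windows of the same length. In Arntl it lay at bases 281 to 287 of the window, counted from 1 at the 5′ end. The same gene's other window (chr7:113207215-113207514), for another start, ends before this site and had no match to the core. In Nfil3 it lay at bases 239 to 245, and with its flank it read TTAGTAGGTCA. The full RORE consensus, with its A/T-rich flank, matched in Arntl alone and in 0.384% of all windows. The letters AAAGTAGGT, chosen after the Arntl sequence had been read, occurred at bases 241 to 249 (as AAAGTAGGTTA) and 277 to 285 of the Arntl window, and in 0.183% of all windows. The pair of REV-ERB sites called Rev-DR2 (AGGTCANNAGGTCA) was in none of the 9 windows, against 0.00913% of all windows. The short core GGTCA, which overlaps every RORE core, was in windows of 5 of the 6 genes. By windows this was 6 of 9, against 40.5% of all windows.

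Of the other elements, the E-box was in the Cry1 window alone, at bases 191 to 196, where it overlaps a GGTCA core, and in 7.15% of all windows. The E'-box was also in the Cry1 window, at bases 172 to 177, and in 4.68% of all windows. The D-box, searched as TTATGTAA or TTACGTAA, was in none of the 9 windows, against 1.06% of all windows. A match is a description of letters, and an element outside these windows was not looked for.

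On the arrays, the positive-limb genes Arntl and Npas2 were higher and the targeted gene Nfil3 was lower in the E4bp4-LKO pool than in the WT pool. Cry1 was higher by less, and Clock and Rora differed little. Values are deposited log2 intensities, and a difference is E4bp4-LKO minus WT, so 1.5-fold is 0.585. Levels of different probe sets are not on a common scale. They were not ranked against each other, except by distance in the search for the genes nearest to Nfil3 and Arntl. A floor, the median over genes of the mean of the 2 arrays, lay at 4.20. All 6 genes were above it, as were 11090 genes in total.

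Nfil3, the targeted gene, measured 5.94 in the WT pool and 4.47 in the E4bp4-LKO pool. The direction is that of the genotype label, and the difference of -1.47 (2.77-fold) was the 11th lowest among the genes above the floor. The E4bp4-LKO value stood only 0.27 above the floor, a range in which RMA compresses differences. Whether the probes lie in the part of the gene that is missing is not known here, so the signal that was left cannot be read as transcript.

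Arntl, which encodes BMAL1, measured 5.83 in the WT pool and 6.74 in the E4bp4-LKO pool. It was 1.87-fold higher, a difference of 0.90 that 1.04% of the genes above the floor matched or passed in size in either direction. Npas2, which encodes the alternative partner of BMAL1, measured 4.71 and 5.31. Its difference of 0.60 (1.51-fold) was just past the 1.5-fold threshold, and 3.35% of genes above the floor matched or passed it in size. When the arrays were set level on 8 hepatocyte markers, a scaling chosen after the data were seen, Npas2 differed by 0.50 and was no longer past it.

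Clock, which encodes the usual partner of BMAL1, measured 9.05 in the WT pool and 8.99 in the E4bp4-LKO pool. Its difference of -0.05 was matched or passed by 79.0% of the genes above the floor. The paralogs Clock and Npas2 therefore stood 0.05 lower and 0.60 higher on the same pair of arrays.

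Cry1, a repressor of CLOCK and BMAL1 that combines E-box and RORE control, measured 5.07 and 5.39. Its difference of 0.32 (1.25-fold) was matched or passed by 16.1% of the genes above the floor. Rora, the gene of the activator RORα that binds the RORE, measured 5.66 and 5.78. It differed by 0.12 (1.09-fold), as did or exceeded 55.9% of the genes above the floor.

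**Figure D1:**
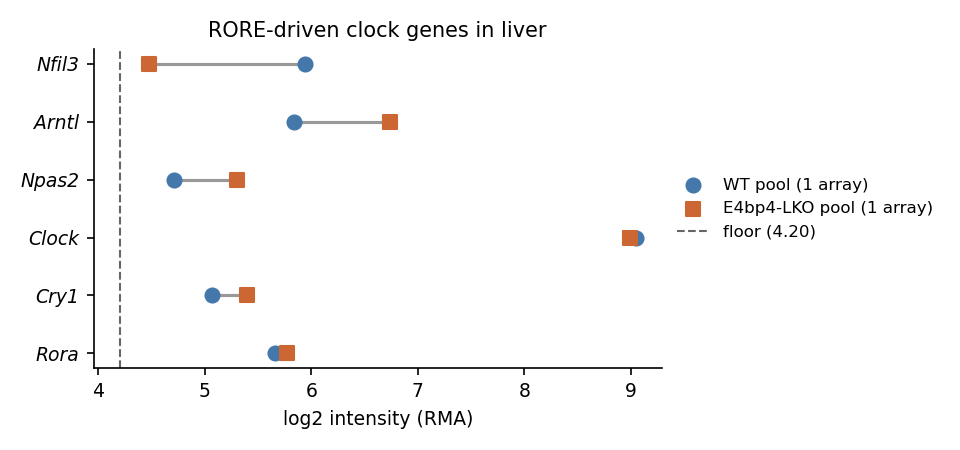
Log2 intensity (horizontal axis) of the 6 genes on the WT array (circles) and the E4bp4-LKO array (squares), 1 array of pooled RNA each, with the floor of 4.20 dashed. Nfil3 lies lower and Arntl, Npas2 and Cry1 lie higher in the E4bp4-LKO pool, while the points of Clock and Rora nearly meet.

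At least 1.5-fold apart were 3 of the 6 genes, against 3.57% of all genes above the floor. Those higher were Arntl and Npas2, 2 of 6 against 1.51%, and the one lower was the targeted gene itself, 1 of 6 against 2.06%. At 1.2-fold the count was 4 of 6 against 23.3%, with Cry1 added, and at 2-fold it was 1 of 6, Nfil3, against 0.794%. The median difference of the 6 was 0.22, and it was 0.32 over the 5 genes other than Nfil3, beside -0.02 over all genes above the floor. The genes were chosen with earlier results of these arrays known, so these counts are a description.

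**Figure D2:**
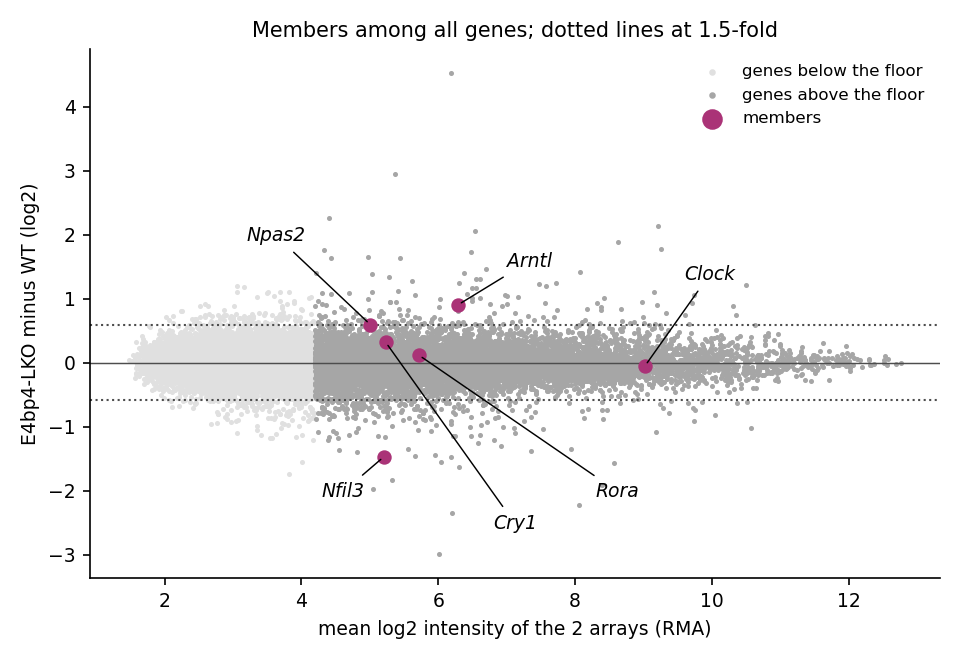
Difference between the arrays (E4bp4-LKO minus WT, log2, vertical axis) against the mean log2 intensity of the 2 arrays for all 22180 genes, with the 6 clock genes named and dotted lines at 1.5-fold. Arntl and Nfil3 lie outside the dotted lines, Npas2 lies on the upper one, and Cry1, Rora and Clock lie between them.

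Among the receptors that act on the RORE, the repressor gene Nr1d1 was lower in the E4bp4-LKO pool. Nr1d1, which encodes REV-ERBα, measured 9.56 in the WT pool and 8.91 in the E4bp4-LKO pool, 1.57-fold lower. Its paralog Nr1d2, which encodes REV-ERBβ, measured 7.83 and 7.86 and differed by 0.04, which turned to -0.06 with the arrays set level on hepatocyte markers. The activator genes Rora (0.12) and Rorb (0.02) did not reach the threshold, and Rorb was below the floor on each array, at 3.08 and 3.10.

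Of the 6 subunits listed for the corepressor complex that REV-ERB recruits, 4 were measured. All 4 were above the floor with differences between -0.19 and -0.03. The largest was that of Tbl1x, a scaffold of the complex, and Gps2 and Hdac3, its histone deacetylase, differed by -0.14 and -0.07. With the intensity trend removed, Tbl1xr1 turned to just above 0. Among 10 coactivators of ROR and of CLOCK-BMAL1, none was 1.5-fold apart, against 3.57% of all genes above the floor. Their median was -0.05. The PGC-1 genes Ppargc1b and Ppargc1a differed by -0.37 and -0.10, and Ep300, a histone acetyltransferase, by -0.11.

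Clock genes that are driven by the E-box and D-box were measured for 11 of 13 listed. Above the floor were 10, of which 4 lay at or past 1.5-fold on the lower side and none on the higher side, with a median of -0.18. The shares over all genes above the floor were 2.06% on the lower side and 1.51% on the higher side. The 4 were Dbp (-1.08), Per3 (-0.68), Nr1d1 and the transcriptional repressor gene Ciart (-0.63), and the other 6 lay between -0.22 and 0.16. With the floor at the 75th percentile, 2 were past the threshold and the median was -0.03. Bhlhe41, a repressor that competes for the E-box, measured 4.79 in the WT pool and 3.23 in the E4bp4-LKO pool. Its mean was below the floor, so the size of that difference is uncertain, and it is not in the count. On this pair of arrays the 5 RORE genes other than Nfil3 thus had a median of 0.32 and the E-box and D-box genes one of -0.18. Because the hour of collection is not stated, a different hour for each pool and the genotype cannot be told apart.

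**Figure D3:**
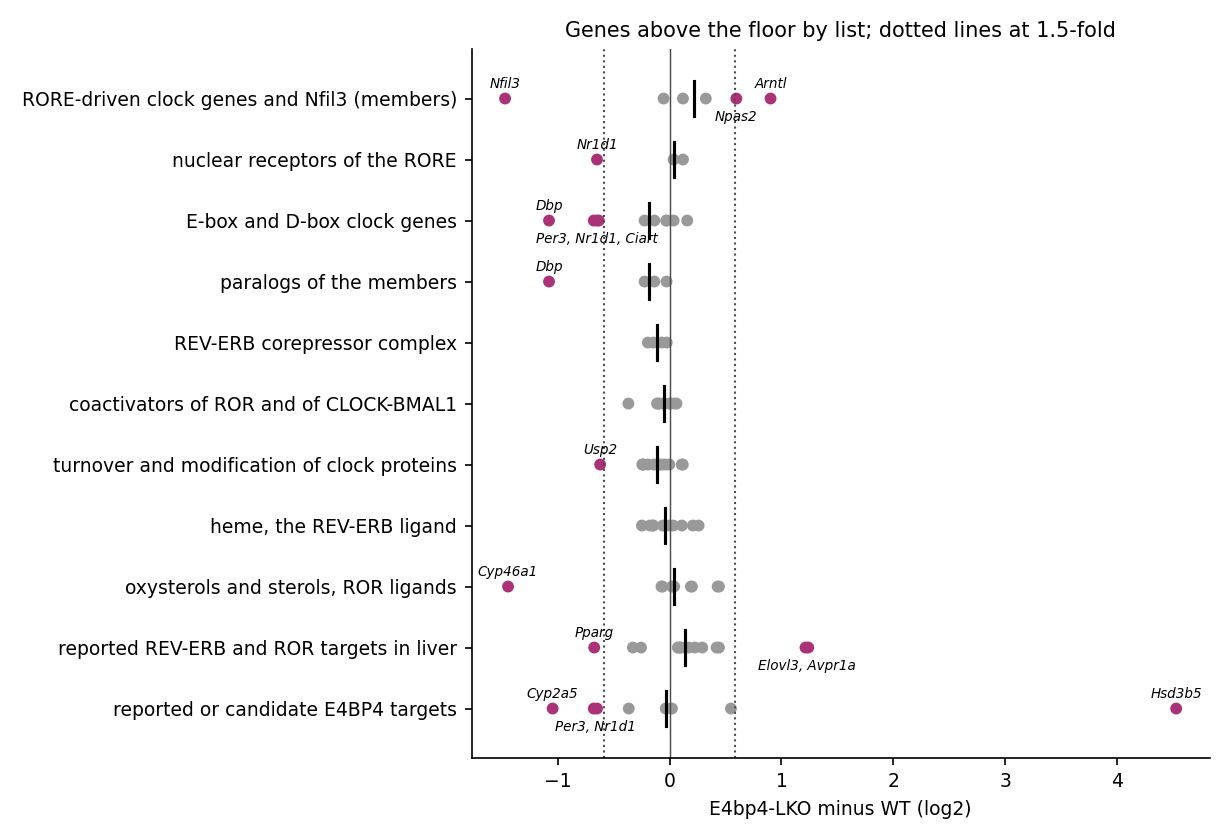
Difference between the arrays (E4bp4-LKO minus WT, log2) of each gene above the floor in the 6 clock genes and in 10 related lists, which share some genes; black bars are medians, dotted lines mark 1.5-fold, and genes past them are coloured and named. Arntl and Npas2 lie to the right of 0 and Nr1d1, Per3, Ciart and Dbp to the left.

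Of the listed paralogs from outside the 6 genes, none that lay above the floor was higher in the E4bp4-LKO pool. Of all 11090 genes above the floor, 6045 lay below 0. Arntl2, the relative of Arntl, was below the floor at 3.99 and 3.90. Cry2, the relative of Cry1, measured 7.07 and 6.94 and differed by -0.14. The D-box activators, which are related to E4BP4 and bind the same element, had Dbp lower and Tef (-0.22) and Hlf (-0.03) closer to 0. Of 7 listed paralogs, 4 were above the floor, and these 4 are also in the E-box and D-box list.

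Enzymes that modify or degrade clock proteins were measured for 15 of 18 listed, and 14 were above the floor with a median of -0.11. Usp2, a deubiquitinase that acts on clock proteins, measured 7.74 in the WT pool and 7.12 in the E4bp4-LKO pool. It was 1.54-fold lower and the only one past the threshold, 1 of 14 against 3.57% of all genes above the floor. The kinase genes Csnk1e and Gsk3b differed by -0.11 and -0.19, and Fbxw7, a ubiquitin ligase subunit, by -0.24.

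Small molecules tune both receptor families, heme for REV-ERB and sterols for ROR. None of the 11 measured genes of heme synthesis and breakdown was 1.5-fold apart, against 3.57% of all genes above the floor. Their median was -0.04. The largest differences were those of Blvra, a biliverdin reductase (0.26), Alas1, the rate-limiting enzyme of heme synthesis (-0.25), and the heme oxygenase gene Hmox2 (0.21). Of the enzymes that make or clear sterols and oxysterols, 9 were above the floor with a median of 0.04, or -0.05 under the hepatocyte scaling. Cyp46a1, a cholesterol hydroxylase, measured 6.68 in the WT pool and 5.23 in the E4bp4-LKO pool, 2.72-fold lower. It was the only one past the threshold, 1 of 9 against 3.57% of all genes above the floor. With the floor at the 75th percentile of expression it was left out and none was past it. The oxysterol hydroxylase genes Cyp7b1 (0.44) and Cyp39a1 (0.43) were higher by less.

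Liver genes reported to be under REV-ERB and ROR control were measured for 14 of 16 listed, all above the floor. Their median was 0.14, with 11 above 0 and 3 below, and under the hepatocyte scaling it was 0.04, with 8 above and 6 below. Over all genes above the floor, without that scaling, 5043 lay above 0 and 6045 below. Avpr1a, a vasopressin receptor, measured 5.68 in the WT pool and 6.92 in the E4bp4-LKO pool, 2.36-fold higher. Elovl3, a fatty acid elongase, measured 9.89 and 11.10, 2.32-fold higher. Pparg, a nuclear receptor of fat storage, was 1.59-fold lower. These were the 3 past the threshold, 3 of 14 against 3.57% of all genes above the floor.

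Reported or candidate targets of E4BP4 were above the floor for 9 of 12 listed, with a median of -0.03. Per3, Cyp2a5 (-1.04) and Nr1d1 were at least 1.5-fold lower, 3 of 9 against 2.06% of all genes above the floor. Per3 and Nr1d1 were already counted in the E-box and D-box list. Hsd3b5, a steroid-reducing enzyme entered as a candidate, was higher (3.92 and 8.45), with a WT value below the floor. It was the only one at least 1.5-fold higher, 1 of 9 against 1.51% of all genes above the floor. Cyp7a1, which starts the making of bile acids, differed by 0.55 and Id2, an inhibitor of helix-loop-helix factors, by -0.03. Il12b and Eomes were below the floor on each array. Genes of this list of reported or candidate targets were found on each side of 0. With the floor at the 75th percentile, 1 of them was past 1.5-fold instead of 4.

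The genes next to Nfil3 on its chromosome were examined because they flank the targeted allele. Of the 5 nearest genes with a probe set on each side, in the gene order of GRCm38.p6, 2 were above the floor. Auh, the nearest on one side and an enzyme of leucine breakdown, measured 5.97 in the WT pool and 7.13 in the E4bp4-LKO pool, 2.24-fold higher. Sptlc1, a subunit of serine palmitoyltransferase, measured 6.66 and 6.57. Ror2, the nearest with a probe set on the other side, had a mean below the floor, at 3.42 and 3.58, and so had BB123696, Syk, Gm2848, Diras2, Gm2762, Msx2 and Drd1. Auh and Nfil3 are adjacent among the genes measured and differed in opposite directions.

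**Figure D4:**
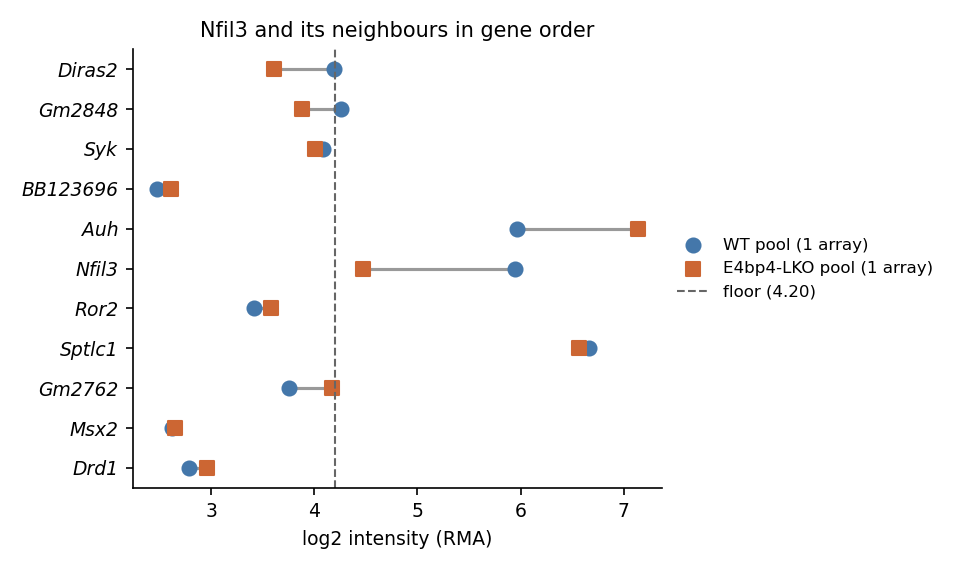
Log2 intensity (horizontal axis) of Nfil3 and of the 5 nearest genes with a probe set on each side, in gene order from top to bottom, on the WT array (circles) and the E4bp4-LKO array (squares), with the floor of 4.20 dashed. Auh is higher and Nfil3 lower in the E4bp4-LKO pool, Sptlc1 nearly coincides, and the other 8 genes lie around or below the floor.

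By Euclidean distance over the 2 log2 values, the genes nearest to Nfil3 were Creb3l1, a membrane-bound transcription factor (distance 0.22), Mtmr11 (0.27) and Myh2, a myosin of skeletal muscle (0.30). Those nearest to Arntl were Saa3, a serum amyloid (0.06), the small nucleolar RNA gene Snora30 (0.07) and Gm19522 (0.18). With 2 arrays this likeness only says that the pairs of values are close. Levels of different probe sets are not on a common scale, so it does not mean equal amounts of transcript.

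The RNA of each pool carried the markers of liver, with Alb at 12.77 on each array and all 8 hepatocyte markers above the floor. All 8 skeletal muscle markers were lower in the E4bp4-LKO pool, with a median difference of -0.89 and a summed linear intensity of 675 (WT) and 331 (E4bp4-LKO). All 6 stellate cell markers were lower too (median -0.54, sums 1950 and 1530), as were 5 of 6 endothelial markers (median -0.21). Of 6 measured keratinocyte markers, 4 were higher and 2 lower (median 0.98, sums 637 and 347), with Krt4 (2.95), Krt13 (2.26) and Krtdap (1.76) on the higher side and Sprr1a (-2.22) on the lower. T and NK cell markers, from cells in which Nfil3 is also active, had a median of -0.01, with 4 higher and 4 lower, sums of 157 and 181, and 5 of 8 below the floor, Klrb1c among them. The part of these cells in the differences of the 6 clock genes was not tested. In pooled tissue RNA, fewer cells of a type and less RNA per cell cannot be told apart.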

How the data were processed

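The deposited table holds log2 intensities of 41345 probe sets on 2 arrays. The submitters' processing notes name RMA and R 3.4.0, so the authors had corrected background, equalised the arrays by quantiles and summarised probes on the log2 scale before depositing them. RMA compresses differences of dim genes. Other settings and the build are not stated there. Scanner files were not used here.

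Symbols came from the platform annotation. It gave 1 symbol to 23521 probe sets, several to 1814 and none to 16010, and only the first kind was used. The 6 clock genes were matched to RefSeq by Entrez identifier (6 of 6). Probe sets of a gene were averaged with Python 3.11.15 and pandas 2.3.3. The call rule and the motif search were tested on simulated data.

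The 6 genes, the 10 lists and the thresholds were chosen with earlier results of these data known. Named are the 6 genes, the RORE receptors, list members past 1.5-fold or farthest from 0, best known members chosen after their values were seen, the neighbours of Nfil3 and the nearest genes. Alternatives covered probe sets, scaling, floor, threshold, promoter window and motif.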

Additional observations from a re-analysis of the deposited data

How the results depend on the processing

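Neither group has a second array, so no array could be left out. No paired analysis was possible because each genotype has 1 array. The 6 genes each have 1 probe set and none with several symbols, so the choice of probe sets could not change them. Over 5 alternatives of probe sets and scaling, Nfil3 ranged from -1.56 to -1.41, Arntl from 0.81 to 0.92, Npas2 from 0.50 to 0.63, Cry1 from 0.23 to 0.38, Rora from 0.02 to 0.13 and Clock from -0.15 to -0.02, all on the side of 0 first given. The smallest Npas2 value came from setting the arrays level on hepatocyte markers, which left 2 of the 6 genes past 1.5-fold. A floor at the 75th percentile (6.28) kept 2 of the 6 genes and left 1 past the threshold, Arntl, because Nfil3 and Npas2 were then below it. Arntl itself was kept narrowly, with a mean of 6.2855 against a floor of 6.2831. That call, and the median over the 2 genes kept, rest on this margin. At 2-fold the count was 1. The median of all 6 ranged from 0.13 to 0.26 over the alternatives of probe sets and scaling. It was 0.32 without Nfil3, and 0.42 over the 2 genes above the 75th percentile floor. Centring the arrays on their median or on hepatocyte markers adds 1 constant to every difference. The arrays' shifts were -0.01 and 0.10, so under these 2 settings no list median could move by 0.22. Dropping the floor changes nothing in a list with no gene below it. With these settings included, 49 of 50 list medians moved by less than 0.22, the SD between probe sets of a gene over 555 genes. Of 50 list counts, 47 stayed within 1.5 times. The exceptions were all at the 75th percentile floor: the median of the RORE receptors (-0.31) and the counts past 1.5-fold of E-box and D-box genes (2 instead of 4), E4BP4 targets (1 instead of 4) and sterol genes (0 instead of 1). Among the genes of the lists, no scaling other than that on hepatocyte markers changed a call at 1.5-fold, and that one changed Npas2 alone. In the 200 bases upstream of the start alone, 1 of the 6 genes (Nfil3) held a RORE core. In the whole window, the full consensus, added after the data were seen, matched in 1 gene (Arntl), and the repeated letters AAAGTAGGT matched in the same gene.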
